A study of Mus musculus with 44 samples.

Results

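The lysosome and autophagy genes described here are 36 named mouse genes that make up the digestive compartment of the cell and the machinery that delivers material to it. They were chosen by name, as listed genes that are present in both bulk RNA tables and both single-cell tables of the series. The list was drawn up with earlier results of these data known, so it was not blind to them. The genes are 36 of the 16078 genes of the tumor table and 36 of the 15926 genes of the table of treated cells. For chromatin, regions within 1 kb of a gene's start were taken, which gave 35 of 88981 regions for 34 of the genes in the table of lines and GTS sources (none for Glb1 and Gabarapl1). In the table of sorted fractions they were 34 of 88258 regions for 33 genes (none for Ctsz, Gabarapl1 and Cd63).

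The study compared mouse medulloblastoma, a tumor of the cerebellum, with recurrence as its stated subject, by bulk RNA-seq, ATAC-seq and single-cell RNA-seq. The bulk RNA came from 8 GTML tumors, 6 GTS tumors, and material named GTML3 and preGTS1 given DMSO, the solvent, or DOX, with 3 samples per condition. As background on the models, which the labels name without explaining, GTML mice carry a MYCN transgene behind a tetracycline-controlled promoter whose activator is driven from Glt1 (Slc1a2), so that doxycycline silences it. GTS mice carry in addition a doxycycline-dependent activator driven from Sox9, so that MYCN can be switched to Sox9-expressing cells. The labels give no age, dose or time, and do not explain what distinguishes preGTS1. GTML3 and preGTS1 carry the tissue label tumor and are called lines here; each is 1 line, and no label says that its replicates were separate cultures, so the p-values reflect only how far these samples scatter, which may be a technical matter. ATAC-seq, in which a transposase cuts accessible DNA, was run in duplicate on both lines under both treatments, on the sources GTS1 and GTS2, and on fractions named GFP and NoneGFP of a GTML source. The 2 single-cell libraries are named GTML_SOX9-GFP, from a GTML source, and fGTS2, from a GTS source.

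Lysosomes are acidic compartments in which soluble hydrolases break down proteins, lipids and sugars. A proton pump, the V-ATPase, keeps them acidic, and heavily glycosylated membrane proteins line and transport across their wall. In autophagy, a membrane grows around cytoplasm or marked cargo, ATG8-family proteins are attached to it, and the closed vesicle fuses with the lysosome. TFEB and TFE3, basic helix-loop-helix factors that bind the sequence CACGTG and longer forms of it, are known activators of genes of this system when nutrients are short. MYC proteins bind CACGTG as well.

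Summed over all genes, recovered reads ranged (in units of 1000000) from 10.861 to 24.672 in the 12 line RNA libraries and from 0.827 to 14.954 in the ATAC libraries, and the tumor values keep no trace of theirs. Under DOX, Mycn fell by 3.59 in GTML3 and by 4.86 in preGTS1 on the log2 scale, a row that does not separate transgene from mouse gene. All 15 division markers fell in both lines, from 7060 to 7419 summed CPM (counts scaled to a common library total of 1000000) to between 796.7 and 911.5 in GTML3 and from 7111 to 7459 CPM to between 661.3 and 733.5 in preGTS1. Of 10 neuronal differentiation markers, 8 rose and 1 fell in GTML3, and 9 rose in preGTS1. Of 10 cerebellar and medulloblastoma lineage markers, 7 were listed in the lines; of 18 microglia and macrophage markers 2 were listed, with a summed level of 1.9 to 5.817 CPM, and none of the 8 used to define myeloid cells. One library stood apart: in GTML3 under DOX, read counts of replicate 1 differed from the others by a chi-square of 58.952 and 83.409 per degree of freedom, against 4.61 between the other pair.

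The sequences in front of these genes are shown first, because the CACGTG core recurs in several of them. RefSeq promoter windows (build GRCm38.p6, 250 bases before to 50 bases after a start) were held for 30 of the 36 genes, in 36 windows. CACGTG was present in 10 of the 36 windows (27.8%) against 7.15% of all 32851 windows. The longer TCACGTGA was present in 6 (16.7%, against 0.974% of all windows), and GTCACGTGAC in 1, that of Cln3 (2.78%, against 0.326%). Each motif contains the one before it and is its own reverse complement, so both strands are covered. The stretches below are those of the 6 genes with TCACGTGA and of Lamp1, which has the most cores, while Ctsl, Gaa and Glb1, with 1 core each, are not printed. They run 5′ to 3′ on the gene's strand, and capitals mark each CACGTG. The stretches of Lamp1, Ctsa and Atp6v0d1 run up to 10 bases past the start, and the others end before it. The core of Atp6v0d1 spans the start. A match describes the letters only.
Lamp1, chr8:13159080-13159170, plus strand: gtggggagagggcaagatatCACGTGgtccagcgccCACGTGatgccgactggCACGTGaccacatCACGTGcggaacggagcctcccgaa
Mcoln1, chr8:3500428-3500499, plus strand: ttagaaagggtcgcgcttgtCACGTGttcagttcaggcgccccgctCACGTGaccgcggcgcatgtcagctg
Cln3, chr7:126583332-126583405, minus strand: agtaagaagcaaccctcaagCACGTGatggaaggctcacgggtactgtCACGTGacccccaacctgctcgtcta
Ctsd, chr7:142387900-142387945, minus strand: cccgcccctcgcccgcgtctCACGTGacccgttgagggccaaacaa
Ctsa, chr2:164833741-164833782, plus strand: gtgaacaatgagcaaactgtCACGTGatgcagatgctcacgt
Atp6v1a, chr16:44139365-44139410, minus strand: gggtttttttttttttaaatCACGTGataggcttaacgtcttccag
Atp6v0d1, chr8:105566055-105566087, minus strand: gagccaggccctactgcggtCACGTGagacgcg
Lamp1, a main glycoprotein of the lysosomal wall, had 4 cores between 61 and 15 bases before its start. Mcoln1, a lysosomal calcium channel, and Cln3, a lysosomal membrane protein lost in a juvenile storage disease, had 2 each. Ctsd and Ctsa also had 2, of which the ones not printed lie 245 bases before the start of Ctsd and at base 5 past that of Ctsa. In the response to DOX, described next, the median log2 change in GTML3 was 0.87 in the 10 genes with CACGTG (10 rose) and 0.93 in the 20 without (19 rose). In preGTS1 it was 0.48 (7 rose) and 0.87 (18 rose), and the difference was not tested.

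Under DOX, 34 of the 36 genes rose in GTML3 and 30 rose in preGTS1, and none fell in either line (limma, adjusted p under 0.05 over 15926 genes). Of all genes tested, 34.5% rose and 31.4% fell in GTML3, and 34.5% rose and 33.7% fell in preGTS1. All 36 passed the filter on low values, Ctsz only through its level in preGTS1. The median log2 change was 0.88 in GTML3, where all genes had 0.05, and 0.69 in preGTS1, where all genes had 0.04. The same 30 genes rose in both lines; Hexa, Glb1, Cln3 and Atp6v1a were called in GTML3 alone, and Ctsz and Asah1 in neither. Every DOX library lay above every DMSO library for 34 genes in GTML3 and 30 in preGTS1, which 37.9% and 37.5% of all genes did. Summed over the 36 genes, the level went from 2727 ± 28.4 to 5118 ± 289 CPM in GTML3 and from 3253 ± 149 to 5908 ± 194 CPM in preGTS1 (SD, n = 3). Without GTML3 DOX replicate 1, the library that stood apart, 34 genes still rose in GTML3. Division markers fell and neuronal markers rose with the treatment in these libraries. Of the other cell type lists, 4 of 8 astrocyte markers were listed. Their sum went from 63.72 to 107.0 CPM in GTML3 and from 225.6 to 685.6 in preGTS1 (means of 3). Of these 4, 2 rose and 1 fell in GTML3, and 3 rose and 1 fell in preGTS1. Fabp7 was higher by 3.3 and 3.39, while Slc1a3 fell by 2.65 in GTML3 and Gja1 by 1.34 in preGTS1. The 4 listed of 8 oligodendrocyte markers went from 21.67 to 39.95 and from 36.37 to 82.81 CPM. Of them, 3 rose and 1 (Olig1, near 0 reads) fell in GTML3, and 2 rose and 1 (Mbp, by 0.8) fell in preGTS1. The 4 listed of 9 endothelial and mural markers went from 6.752 to 10.86 and from 5.87 to 68.45, with Kdr higher by 1.30 and 4.58. The part of any of these in the changes of the 36 genes was not tested.

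**Figure D1:**
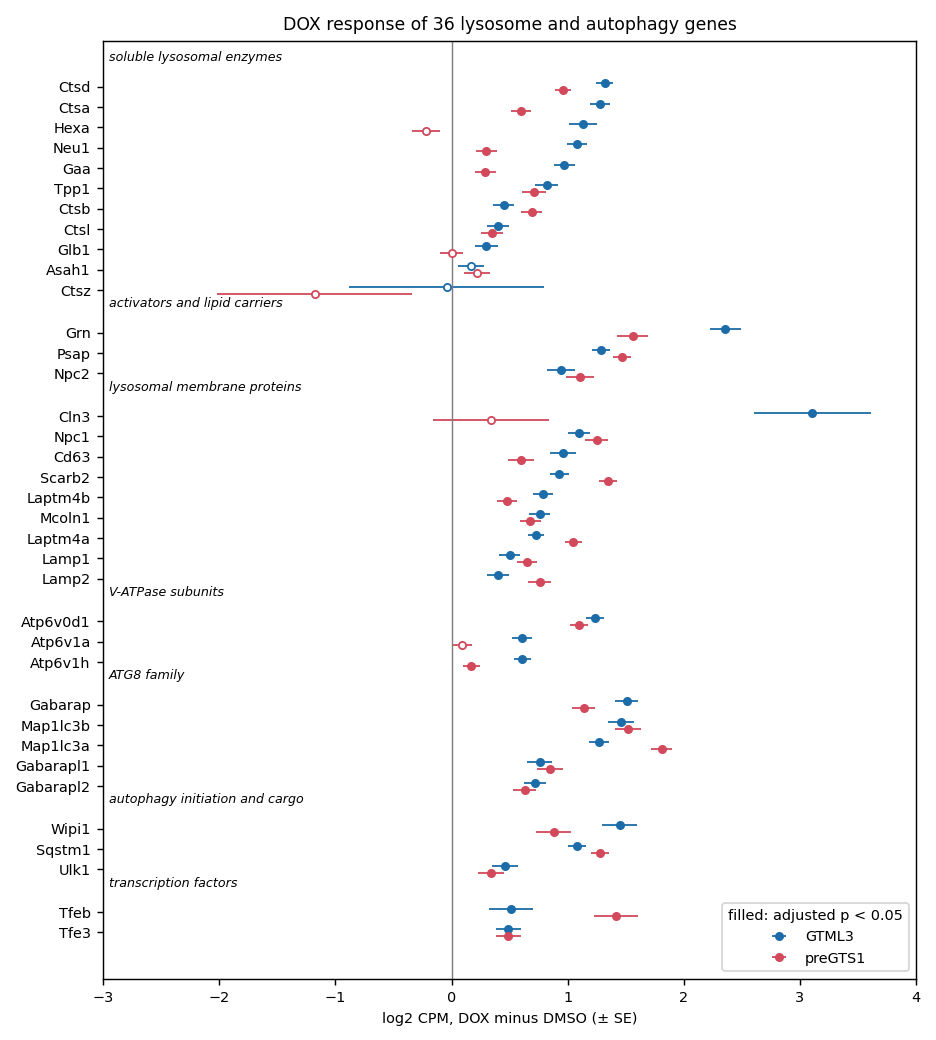
Change under DOX of each of the 36 genes in log2 CPM (DOX minus DMSO), grouped by role, for GTML3 (blue) and preGTS1 (red); bars are standard errors from the limma fit and filled points have an adjusted p under 0.05. Nearly all points lie right of 0, with Cln3 farthest in GTML3 and Map1lc3a farthest in preGTS1 and the points of Ctsz and Hexa left of 0 in preGTS1, neither of them filled.

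The soluble enzymes were the most mixed group. Of 11, 9 rose in GTML3 (median 0.82) and 7 in preGTS1 (median 0.30). Ctsd, cathepsin D, the main aspartic protease of the lysosome, had log2 CPM of 7.49, 7.44 and 7.52 under DMSO and 8.67, 8.86 and 8.87 under DOX in GTML3. In preGTS1 it had 7.38, 7.38 and 7.44 under DMSO and 8.37, 8.37 and 8.34 under DOX. In both lines the treated and control libraries did not overlap. The change was 1.32 (SE 0.072, adjusted p = 2.6e-10) in GTML3 and 0.96 (SE 0.072, adjusted p = 7.91e-09) in preGTS1.

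Hexa, which encodes the alpha subunit of beta-hexosaminidase, the enzyme deficient in Tay-Sachs disease, behaved differently in the lines. In GTML3 its log2 CPM went from 5.46, 5.42 and 5.53 to 6.54, 6.62 and 6.64. In preGTS1 it was 2.48, 2.64 and 2.91 under DMSO and 2.54, 2.57 and 2.26 under DOX. The GTML3 groups did not overlap and the preGTS1 groups did. The change was 1.13 (SE 0.12, adjusted p = 7.99e-07) in GTML3 and -0.22 (SE 0.12, adjusted p = 0.124) in preGTS1.

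Ctsz, cathepsin Z, a carboxypeptidase, was all but missing from GTML3. There it had 3, 1 and 0 reads under DMSO and 0, 1 and 2 under DOX, so no fold is given. In preGTS1 it had 349, 281 and 336 reads under DMSO and 103, 120 and 115 under DOX. All 3 DOX libraries lay below all 3 DMSO libraries, and the summed CPM ratio was 0.506 (counting interval 0.446 to 0.574). RNA replicates differed by a chi-square of 4.61 or more per degree of freedom. Counting intervals of summed RNA reads, here and below, therefore leave out part of the spread between replicates. limma gave a change of -1.18 with SE 0.84 (adjusted p = 0.23), since its spread was shared with the near-empty GTML3 libraries. edgeR's quasi-likelihood test and DESeq2 on the recovered reads called the fall, with adjusted p = 4.77e-05 and 7.13e-08.

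Among the other enzymes, Ctsa (protective protein, cathepsin A) rose by 1.28 and 0.60 in GTML3 and preGTS1, and Neu1, the sialidase that it stabilises, by 1.08 and 0.30. Gaa, acid alpha-glucosidase, rose by 0.97 and 0.29, and Tpp1, tripeptidyl peptidase, by 0.82 and 0.71. Ctsb, cathepsin B, rose by 0.45 and 0.69, and Ctsl, cathepsin L, by 0.40 and 0.35. Glb1, beta-galactosidase, rose by 0.30 in GTML3 (adjusted p = 0.0193, lost when any of 4 single libraries was left out) and had 0.00 in preGTS1. Asah1, acid ceramidase, had 0.17 and 0.22 (adjusted p = 0.181 and 0.0957).

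All 3 activators and lipid carriers rose in both lines, with medians of 1.29 and 1.47. Grn, progranulin, a secreted protein that is cut into granulins in the lysosome, had log2 CPM of 3.06, 2.95 and 3.22 under DMSO and 5.67, 5.39 and 5.23 under DOX in GTML3. In preGTS1 it went from 4.71, 4.36 and 4.59 to 6.03, 6.11 and 6.20. The highest GTML3 library under DMSO lay far below the lowest under DOX, and in preGTS1 the groups were apart as well. The change was 2.36 (SE 0.13, adjusted p = 1.97e-10) in GTML3 and 1.56 (SE 0.13, adjusted p = 1.9e-08) in preGTS1. Psap, prosaposin, the precursor of the sphingolipid activator proteins, rose by 1.29 and 1.47, and Npc2, a soluble cholesterol carrier, by 0.94 and 1.11.

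Of the 9 membrane proteins, 9 rose in GTML3 (median 0.79) and 8 in preGTS1 (median 0.68). Cln3 was thinly covered. It had 11, 2 and 4 reads under DMSO and 18, 40 and 39 under DOX in GTML3, and 15, 23 and 37 against 26, 21 and 24 in preGTS1. The groups were apart in GTML3 and overlapped in preGTS1. limma gave 3.11 (SE 0.50, adjusted p = 5.4e-05) and 0.34 (SE 0.50, adjusted p = 0.563), and the ratios of summed CPM were 8.19 (counting interval 4.86 to 14.6) and 1.37 (0.976 to 1.92).

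Scarb2, the receptor that carries glucocerebrosidase to the lysosome, was the membrane protein with the largest fitted change in preGTS1. It went from 5.64, 5.72 and 5.68 to 7.13, 7.01 and 6.97 log2 CPM there, and from 6.29, 6.40 and 6.37 to 7.15, 7.35 and 7.35 in GTML3. The preGTS1 libraries lay below those of GTML3 under both treatments, by less under DOX, and the line difference was called under both. The change was 0.93 in GTML3 and 1.35 in preGTS1 (SE 0.078, adjusted p = 3.36e-10). Npc1, the membrane partner of Npc2 in cholesterol export, rose by 1.10 and 1.25, and Laptm4a by 0.73 and 1.05. Lamp1, whose window holds 4 cores, rose by 0.50 and 0.65, Lamp2 by 0.40 and 0.76, and Mcoln1 by 0.76 and 0.68. Cd63, a tetraspanin of late endosomes, rose by 0.96 and 0.60, and Laptm4b by 0.79 and 0.48.

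Of the 3 V-ATPase subunits, 3 rose in GTML3 (median 0.61) and 2 in preGTS1 (median 0.17). Atp6v0d1, a subunit of the membrane sector, rose by 1.24 (SE 0.077, adjusted p = 1.11e-09) in GTML3 and 1.10 (SE 0.077, adjusted p = 3.74e-09) in preGTS1. Atp6v1a, the catalytic subunit of the cytoplasmic sector, went from 7.98, 8.16 and 8.15 to 8.61, 8.72 and 8.79 log2 CPM in GTML3, and was 7.42, 7.61 and 7.52 against 7.73, 7.52 and 7.55 in preGTS1. The groups were apart in GTML3 and overlapped in preGTS1, with changes of 0.61 (SE 0.086, adjusted p = 1.22e-05) and 0.09 (SE 0.086, adjusted p = 0.388). Atp6v1h, a regulatory subunit of the same sector, rose by 0.61 in GTML3; its 0.17 in preGTS1 (adjusted p = 0.0474) was lost under edgeR and when several single libraries were left out.

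All 5 ATG8-family genes, which encode the ubiquitin-like proteins of the autophagosome membrane, rose in both lines (medians 1.27 and 1.14). Map1lc3a, one of the LC3 genes, went from 5.55, 5.58 and 5.38 to 6.81, 6.76 and 6.75 log2 CPM in GTML3 and from 4.37, 4.08 and 4.33 to 6.06, 6.09 and 6.06 in preGTS1. In each line the 3 treated libraries lay close together and well above all 3 controls. The change was 1.27 (SE 0.089, adjusted p = 4.87e-09) and 1.81 (SE 0.089, adjusted p = 5.65e-11). Map1lc3b rose by 1.46 and 1.52 and Gabarap by 1.51 and 1.14. Gabarapl1 rose by 0.76 and 0.85, and Gabarapl2, the smallest change of the family in both lines, by 0.72 and 0.63.

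The initiation and cargo genes rose as well. Sqstm1, encoding p62, which links ubiquitinated cargo to ATG8 proteins, rose by 1.08 (SE 0.08, adjusted p = 8.89e-09) in GTML3 and 1.28 (SE 0.08, adjusted p = 8.85e-10) in preGTS1. Wipi1, a phosphoinositide-binding protein of the growing membrane, rose by 1.45 and 0.88. Ulk1, the kinase that starts autophagy, had smaller rises of 0.46 and 0.34.

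The factor genes Tfeb and Tfe3 were themselves higher under DOX. Tfeb had log2 CPM of 4.07, 3.79 and 3.76 under DMSO and 4.22, 4.59 and 4.35 under DOX in GTML3, and 2.21, 1.77 and 2.25 against 3.29, 3.92 and 3.27 in preGTS1. The groups did not overlap, but in GTML3 the gap was narrower than the spread within either group. The change was 0.51 (SE 0.19, adjusted p = 0.0267, lost when any of 4 single libraries was left out) in GTML3 and 1.42 (SE 0.19, adjusted p = 6.95e-06) in preGTS1. Tfe3 rose by 0.49 in both (adjusted p = 0.000959 and 0.000843). RNA levels do not show where in the cell these factors are, on which their activity is known to depend.

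**Figure D2:**
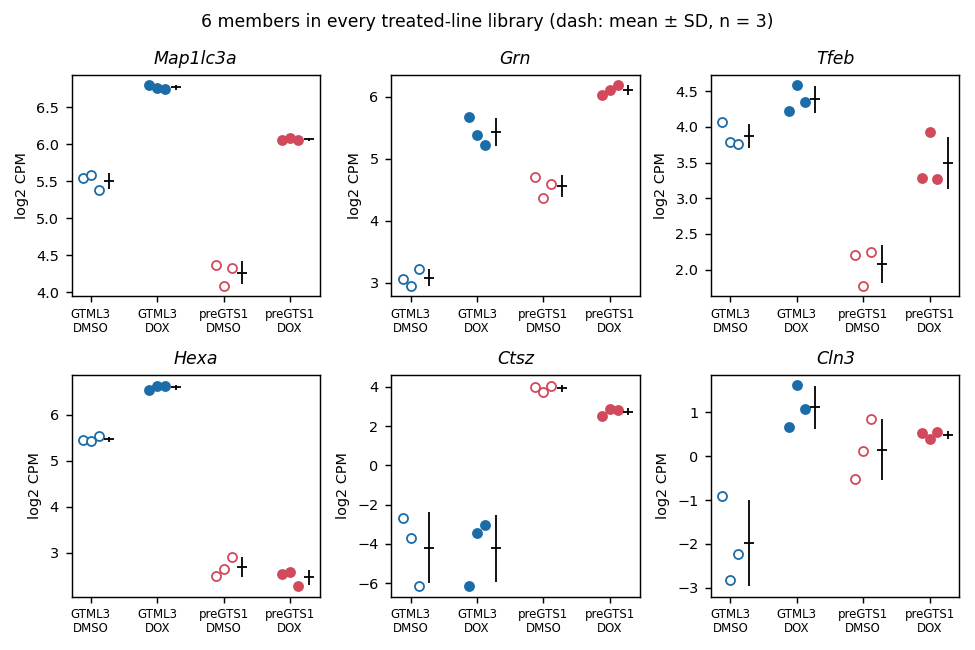
log2 CPM of Map1lc3a, Grn, Tfeb, Hexa, Ctsz and Cln3 in the 12 line libraries, with the mean and SD of 3 per group. Map1lc3a, Grn and Tfeb are higher under DOX in both lines, Hexa in GTML3 alone with preGTS1 far below, Ctsz is near 0 reads in all GTML3 libraries, and Cln3 overlaps in preGTS1.

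The rest of the pathway was read from lists of genes outside the 36. Of 30 other lysosomal hydrolases tested, 23 rose and 1 fell in GTML3 (median 0.88), and 22 rose and 5 fell in preGTS1 (median 0.70). Lipa, lysosomal acid lipase, rose by 2.30 in GTML3 (adjusted p = 6.58e-12), and the cathepsin gene Ctso by 2.49 in preGTS1. Ctsf rose by 2.45 in GTML3. It was called in preGTS1 too, but it passed the filter through GTML3 alone, with 0 reads in 1 preGTS1 control library, so no fold is given there. Those that fell included Manba by 0.59 in GTML3, and Ctsc by 1.84 and Scpep1 by 1.11 in preGTS1. Of 15 other V-ATPase subunits, 11 rose in GTML3 (median 0.77), 13 rose in preGTS1 (median 0.41) and none fell. Atp6v1g2, by 1.71 and 1.98, and Atp6v0e2, by 1.51 and 1.87, rose farthest.

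The remaining lists held genes that rose and genes that fell, as did all genes tested (34.5% and 31.4% in GTML3, 34.5% and 33.7% in preGTS1). Of 21 other membrane and delivery genes, 11 rose and 4 fell in each line, among them Lmbrd1, a lysosomal cobalamin transporter, higher by 1.5 and 1.13. Gnptab, which encodes the enzyme that tags hydrolases for delivery, fell by 1.09 and 0.94. Of 32 other autophagosome and cargo genes, 20 rose and 3 fell in GTML3 (median 0.63), and 15 rose and 8 fell in preGTS1 (median 0.23). Calcoco1, a cargo receptor, rose by 2.22 and 1.92, Wdr45 by 2.01 in GTML3 and Zfyve1, a marker of sites where autophagosomes form, by 2.03 in preGTS1. Atg5, needed to attach ATG8 proteins, fell by 0.78 and 0.91. Of 24 factors of the TFEB family and regulators of the nutrient-sensing kinase mTORC1, 11 rose and 4 fell in GTML3, and 7 rose and 7 fell in preGTS1. Flcn, folliculin, rose by 1.94 and 0.76, Rraga, a Rag GTPase, by 2.44 in GTML3 and Sesn2 by 1.10 in preGTS1. Mitf, a relative of Tfeb, fell by 0.68 and 1.15.

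Whether the response to DOX differed between the lines was tested directly, as preGTS1 minus GTML3. The difference was called for 16 of the 36 genes, where 42.2% of all genes were called (17.1% larger and 25.1% smaller in preGTS1), so the share is near the background, and the median was -0.10 both for the 36 and for all genes. The response was larger in preGTS1 for 5 genes and smaller for 11. It was larger for Tfeb, by 0.90 (SE 0.27, adjusted p = 0.0141), Map1lc3a, by 0.54 (SE 0.13, adjusted p = 0.00296), Scarb2, by 0.43, Lamp2, by 0.36, and Laptm4a, by 0.32.

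The genes called with smaller responses in preGTS1 included 5 of the 11 soluble enzymes, and no enzyme was called with a larger one. Cln3 differed by -2.77 (SE 0.71, adjusted p = 0.0058), Hexa by -1.35 (SE 0.17, adjusted p = 2.21e-05) and Grn by -0.80 (SE 0.18, adjusted p = 0.00219). Neu1 differed by -0.78, Gaa by -0.69, Ctsa by -0.68 and Ctsd by -0.36. Wipi1 (-0.57) and Gabarap (-0.37) were called as well, as were Atp6v1a (-0.52) and Atp6v1h (-0.44). Tfe3 had 0.00 (adjusted p = 0.986). The calls of Gabarap, Lamp2 and Wipi1 were lost without single libraries, among them, for Lamp2 and Wipi1, the GTML3 DOX replicate that stood apart.

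The lines also differed before treatment. Under DMSO, 20 genes were higher and 8 lower in preGTS1 than in GTML3, where 38.5% of all genes were higher and 27.9% lower. The median was 0.42, against 0.13 for all genes; centring each library on its median moved the latter from 0.126 to 0.018. Ctsz was highest in preGTS1 relative to GTML3, with 966 summed reads against 4, a CPM ratio of 185 (counting interval 71.9 to 679). Cln3 had 75 reads against 17 (ratio 3.37, 1.97 to 6.1). Gabarap was higher by 1.82 (adjusted p = 4.21e-10), with 6.61, 6.67 and 6.86 log2 CPM in preGTS1 and 5.01, 4.84 and 4.82 in GTML3. The difference of Hexa was -2.79 (SE 0.12, adjusted p = 2.85e-11), and those of Tfeb and Map1lc3a were -1.80 and -1.24.

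Under DOX, 16 genes were higher and 12 lower in preGTS1, where 36.9% and 35.0% of all genes were. These comparisons share libraries with the treatment comparisons, so the values are set side by side and not counted as separate evidence. Ctsz kept its gap, with 338 reads against 3 (ratio 86.9, counting interval 29.5 to 424). The difference of Hexa was -4.14, of Atp6v1a -1.11 and of Tpp1 -1.08. For 22 genes the line difference was called in the same direction under both treatments. Gaa alone was called in opposite directions, 0.46 under DMSO and -0.23 under DOX, the latter lost without some single libraries. Cln3, with 71 reads in preGTS1 against 97 in GTML3, had a ratio of 0.565 (counting interval 0.41 to 0.775) under DOX. limma did not call this difference.

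In the tumors, no gene of the 36 was called between GTS and GTML when the number in the column header, which splits the tumors into 2 sets, was a term of the fit (limma). Of all 15708 genes, 0.0573% were called. At an unadjusted p under 0.05 were 9 of the 36 and 19.5% of all genes, a share near the background. A mean difference between the header numbers had already been removed from the deposited values, so the fit without the term understates the error. That fit called 7 genes higher in GTS (Sqstm1, Psap, Gaa, Asah1, Map1lc3a, Gabarapl2 and Gabarapl1), where it called 3.92% of all genes higher. The 36 genes had a median difference of 0.21, all genes -0.08, and 24 of the 36 were positive, 16 of them in both header sets. These shares were not counted over all genes. In bulk tumors, fewer cells of a type and less RNA per cell cannot be told apart.

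Without a call, every GTS tumor still lay above every GTML tumor for 6 of the 36 genes, which 1.04% of all genes did. The reverse held for none of the 36 (0.809% of all genes), and 30 overlapped. These counts, too, rest on values with the header-number difference removed, which understates the spread within the groups. Map1lc3a had log2 CPM from 5.23 to 6.33 (median 5.48) in the GTS tumors and from 4.33 to 5.11 (median 4.85) in the GTML tumors. The groups did not overlap, with 1 high GTS tumor setting the upper end. The difference was 0.85 (SE 0.24, adjusted p = 0.101), and 0.85 within each header set.

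Gabarapl2 ranged from 5.62 to 6.03 (median 5.80) in GTS and from 4.60 to 5.51 (median 5.21) in GTML, and Gabarap from 6.20 to 6.57 (median 6.30) and from 5.57 to 6.10 (median 6.04). The lowest GTS tumor was just above the highest GTML tumor in both genes. The differences were 0.68 (SE 0.21, adjusted p = 0.129; 0.94 and 0.38 within the header sets) and 0.39 (SE 0.14, adjusted p = 0.17; 0.45 and 0.32). Summed over the 5 ATG8 genes, GTS tumors had 354.8 to 550.4 CPM (median 452.0) and GTML tumors 227.3 to 394.2 (median 332.2), so the sums overlapped.

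Sqstm1 ranged from 7.29 to 7.83 (median 7.50) in GTS and from 6.55 to 7.25 (median 6.95) in GTML. Psap ranged from 8.22 to 8.69 (median 8.39) and from 7.59 to 8.12 (median 7.93). Asah1 ranged from 6.80 to 7.29 (median 6.95) and from 5.86 to 6.73 (median 6.45). All GTS tumors were the higher ones in these 3 genes, by margins small beside the range within GTML. The differences were 0.61 (SE 0.14, adjusted p = 0.0732) for Sqstm1, 0.50 (SE 0.12, adjusted p = 0.0791) for Psap and 0.59 (SE 0.16, adjusted p = 0.0975) for Asah1. Within the header sets they were 0.74 and 0.46, 0.70 and 0.27, and 0.89 and 0.26. Without GTS tumor 3, Psap and Sqstm1 passed the threshold (adjusted p = 0.0487 and 0.0475), and without GTS tumor 2, Gaa did (0.0414). Asah1, called in neither line under DOX, was thus among the genes apart in the tumors.

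The lowest differences were those of Tfeb, Npc2 and Ctsl. Tfeb ranged from -2.78 to 2.48 (median 1.28) in GTS and from 0.86 to 6.35 (median 2.73) in GTML, with a difference of -2.02 (SE 1.1, adjusted p = 0.311; -3.29 and -0.60 within the header sets). Npc2 ranged from 2.45 to 7.42 (median 5.37) and from 3.31 to 7.23 (median 6.64), with a difference of -0.96 (-1.34 and -0.53) that was 0.125 without GTS tumor 1. Ctsl had -0.63, with -1.25 and 0.06 within the sets. In each the groups overlapped widely. Tfe3 had -0.37, negative in one header set (-1.04) and positive in the other (0.39), with 1 GTML tumor at 7.83 far above the rest.

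Markers of other cells were measured in the same tumors. The 18 microglia and macrophage markers summed to 208.7 to 874 CPM (median 415.7) in GTML and 374.6 to 1014 (median 588.7) in GTS, with none called and a median difference of 0.56. Astrocyte markers summed to 100.2 to 486.6 CPM (median 190.3) in GTML and 121.8 to 1295 (median 508.2) in GTS, with a median difference of 1.68 and all 8 genes positive (0.31 to 2.4). Oligodendrocyte markers summed to 67.41 to 421.7 CPM (median 130.2) and 111.9 to 830 (median 215.3), with a median difference of 0.92 (-0.64 to 3.06), and no gene of either list was called. Division markers summed to 2909 to 4011 CPM (median 3460) in GTML and 882.4 to 3921 (median 1983) in GTS. Such cells are known to express lysosomal genes, and the part of these markers in the tumor differences was not tested. In the other lists, none of 34 hydrolases, 15 V-ATPase subunits, 19 membrane and delivery genes, 32 autophagosome genes and 26 TFEB-family and mTORC1 genes was called, with medians of 0.26, 0.19, -0.12, -0.09 and 0.06.

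**Figure D3:**
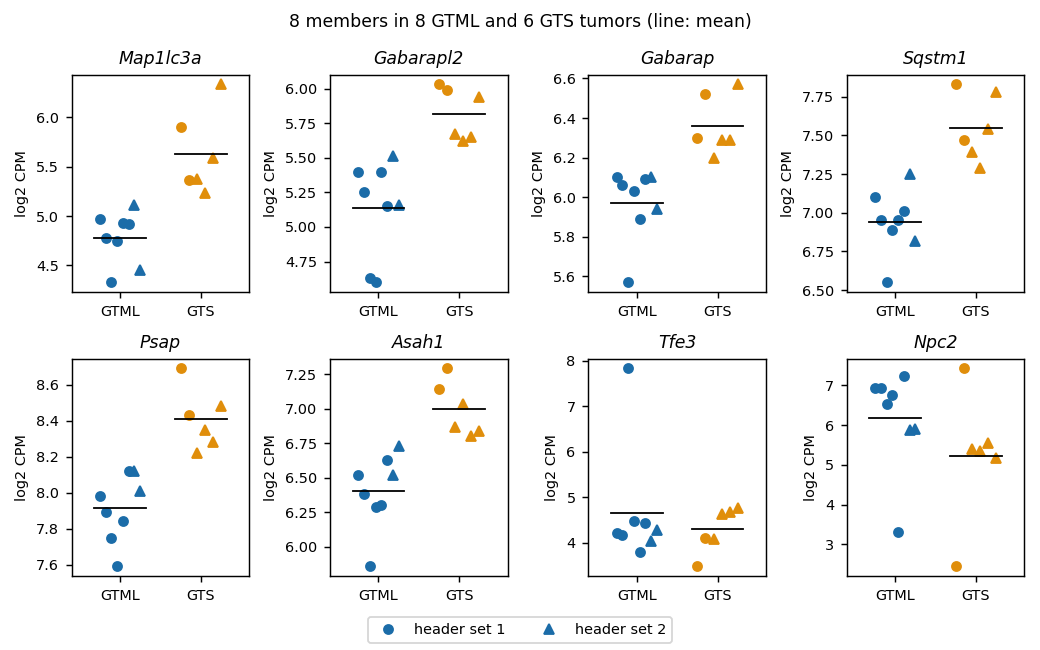
log2 CPM of Map1lc3a, Gabarapl2, Gabarap, Sqstm1, Psap, Asah1, Tfe3 and Npc2 in 8 GTML and 6 GTS tumors; circles and triangles are the 2 header sets and the line is the mean. The first 6 genes have every GTS tumor above every GTML tumor; Tfe3 and Npc2 overlap, and 1 GTML tumor is far above the others for Tfe3.

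Few of the regions at the starts of these genes were called under DOX. Duplicate ATAC libraries differed by a chi-square of 1.849 to 2.056 per degree of freedom, where RNA replicates had 4.61 or more. This is above the 1 of pure counting noise, so counting intervals of merged duplicates leave out part of the spread. The duplicates were counted as 1 sample per condition for levels, and the tests compare these libraries rather than the conditions. In GTML3, 1 of 35 regions was called higher and 1 lower (1.89% and 2.02% of all regions), and in preGTS1 1 was higher and none lower (2.04% and 1.7%). At an unadjusted p under 0.05 were 5 and 8 of the 35, where 21.0% and 19.8% of all regions were. The median change was 0.05 and 0.17 on the log2(CPM + 1) scale, which understates the change of weak regions, against 0.00 and 0.02 for all regions.

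The nearer of 2 Grn regions (mm9, chr11:102291363-102292069, 104 bases from its start) had 9.15 and 8.38 CPM under DMSO and 18.6 and 20.5 under DOX in GTML3, and 11.2 and 13.5 against 20.5 and 18.6 in preGTS1. The DOX libraries were the higher ones in both lines. The change was 1.07 (SE 0.25, adjusted p = 0.0295) in GTML3, on 30 reads and 35 reads, and 0.63 (adjusted p = 0.175) in preGTS1. GTS1 had 38.8 and 40.3 CPM and GTS2 29.5 and 25.9. The farther Grn region, 718 bases from the start, was called in neither line. Its change was 0.52 (limma, adjusted p = 0.615) in GTML3 and -0.11 (adjusted p = 0.95) in preGTS1. The RNA of Grn rose in both lines.

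The Map1lc3a region (chr2:155101670-155102860) had 16.9 and 17.6 CPM under DMSO and 31.3 and 29.8 under DOX in preGTS1, and 39.5 and 43.1 against 36.1 and 39.9 in GTML3. Only the preGTS1 control libraries were low; GTS1 (38.3 and 39.3) and GTS2 (38.0 and 47.1) were at the GTML3 level. The change in preGTS1 was 0.79 (SE 0.20, adjusted p = 0.0351). In RNA, too, Map1lc3a was lower in preGTS1 than in GTML3 under DMSO. The Ctsb region (chr14:63741056-63741831) had 9.72 and 15.0 CPM under DMSO and 5.16 and 3.63 under DOX in GTML3, a change of -1.29 (SE 0.34, adjusted p = 0.0445) on 42 and 8 reads, while Ctsb RNA rose. All 3 of these calls were lost under other settings.

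Between the lines under DMSO, 4 of the 35 regions were higher and 7 lower in preGTS1 (12.3% and 5.47% of all regions), with a median of -0.07 against 0.28 for all regions. The Ctsz region (chr2:174264114-174264917, 25 bases from its start) had 2.86 and 0 CPM in GTML3, from 5 reads, and 21.4 and 19.6 in preGTS1, a difference of 3.45 (SE 0.63, adjusted p = 0.00127). GTS1 had 11.5 CPM and GTS2 4.22, with duplicates merged. The Gabarap region (chr11:69804414-69805357) had 7.44 and 5.99 CPM in GTML3 and 18.6 and 18.8 in preGTS1, a difference of 1.36 (adjusted p = 0.015). For these 2 genes the region and the RNA were both higher in preGTS1. Gabarapl2 (0.92) and Wipi1 (0.61) were the other higher regions, and of their RNA that of Wipi1 was called higher and that of Gabarapl2 was not called.

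The lower regions were those of Map1lc3a (-1.21), Ctsl (-1.06), Atp6v1h (-0.75), Scarb2 (-0.66), Ulk1 (-0.64), Atp6v1a (-0.53) and Asah1 (-0.48). Of these 7, the RNA under DMSO was called lower in preGTS1 for Map1lc3a, Scarb2, Ulk1 and Atp6v1a, higher for Ctsl and Asah1, and not called for Atp6v1h. The Atp6v1a region also holds the start of Naa50, 41 bases away. The Hexa region, with 8.58 and 5.99 CPM in GTML3 and 1.48 and 2.83 in preGTS1, had -1.41 and missed the threshold (adjusted p = 0.0754), while its RNA was called lower. In the sorted fractions, none of 34 regions was called between GFP and NoneGFP by limma or edgeR (3.45% of all regions called). At an unadjusted p under 0.05 were 5 of the 34 and 15.9% of all regions. Of the 34, 8 were positive and the median was -0.08, against 0.03 for all regions. The share of positive regions was not counted over all regions or over those near other gene starts.

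**Figure D4:**
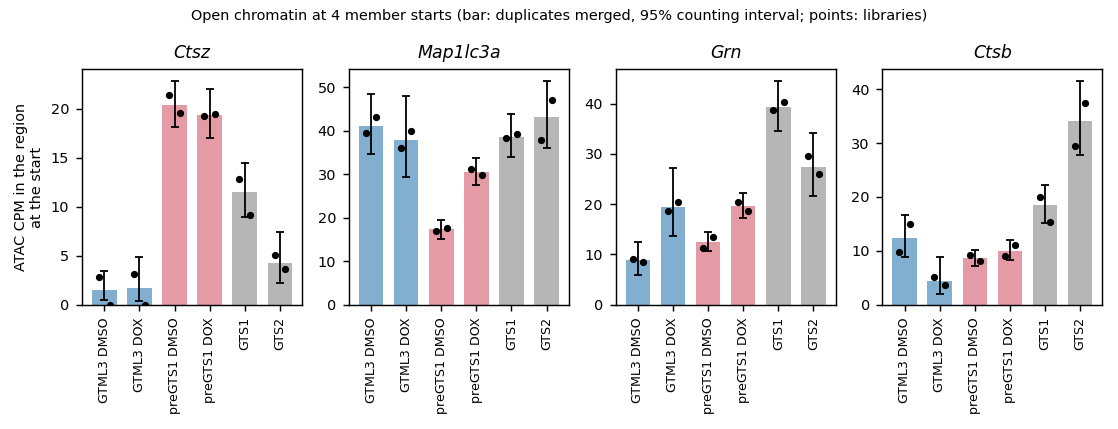
ATAC signal in CPM, duplicates merged, with 95% counting intervals, of the regions at the starts of Ctsz, Map1lc3a, Grn and Ctsb in GTML3 and preGTS1 under DMSO and DOX and in GTS1 and GTS2. Ctsz is near 0 in GTML3, Map1lc3a is low in preGTS1 under DMSO alone, and the nearer Grn region is higher under DOX in both lines.

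In single cells, GTML_SOX9-GFP held 4645 cells with a median of 18744 UMIs (unique molecules) and fGTS2 4498 cells with 20893.5, and 6 barcodes occurred in both. With 1 library per group there is no test, and intervals cover counting error only. Of the 8 myeloid markers, 5 were listed in GTML_SOX9-GFP, where no cell held UMIs of 3 or more. In fGTS2 only 1 was listed, so no cell there could reach 3 and myeloid cells could not be counted. The microglia list gave 1.879 and 4.135 UMI CPM, with 10 and 6 of its 18 genes listed. The 36 genes made up 1999 UMI CPM (1990 to 2008) in GTML_SOX9-GFP and 2108 (2099 to 2117) in fGTS2. At least 1.5 times higher in fGTS2 were 4 genes (13.3% of 12684 genes), and at least 1.5 times lower were 7 (32.0%); 13 had a ratio above 1 (34.0% of all genes) and the median was 0.921, against 0.835 for all genes.

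The genes higher in fGTS2 were Ctsz, Map1lc3a, Gabarapl2 and Asah1, and the last 3 are also among the 6 whose tumors did not overlap. The other 3 of those 6 had ratios of 0.787 (Gabarap), 0.687 (Sqstm1) and 0.576 (Psap), below the median of all genes. Ctsz had 3 UMIs in 3 cells of GTML_SOX9-GFP and 990 UMIs in 763 cells of fGTS2 (ratio 306, interval 104.5 to 1487). Map1lc3a had 107.2 and 211.1 UMI CPM (ratio 1.97), Gabarapl2 214.4 and 381.5 (1.78) and Asah1 25.91 and 41.67 (1.61). The near absence of Ctsz in GTML_SOX9-GFP stands beside its near absence in GTML3, whereas the 8 GTML tumors had 5.91 to 6.57 log2 CPM in bulk.

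Of the genes lower in fGTS2, Cd63 had the lowest ratio, 113.7 against 2.934 UMI CPM (0.0258, interval 0.0229 to 0.0289). It was seen in 77.18% of GTML_SOX9-GFP cells and 5.202% of fGTS2 cells, and, with each cell thinned to 10000 UMIs (496 and 288 shallower cells left out), in 61.51% and 2.85%. In ATAC, the Cd63 region had 5.06 and 6.64 CPM in GTS2 against 58.3 and 64.6 in GTML3 under DMSO, 38.6 and 42.6 in preGTS1 and 28.5 and 35.5 in GTS1. The 6 bulk GTS tumors held Cd63 at 4.54 to 5.35 log2 CPM, within the GTML range of 3.75 to 5.88. The other lower genes were Wipi1 (ratio 0.262), Tfeb (0.457), Gaa (0.463), Npc1 (0.478), Ulk1 (0.520) and Psap (0.576). Psap was thus lower in this GTS library while every bulk GTS tumor was above every GTML tumor.

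Since division markers fell under DOX, cells of each library were ranked by the share of their UMIs from the 15 division markers and cut into 3 groups of equal size. The 36 genes made up 2311, 1929 and 1841 UMI CPM from the least to the most dividing group in GTML_SOX9-GFP, and 2522, 2072 and 1858 in fGTS2. Median UMIs per cell differed too, at 15377, 19024.5 and 22393.5 in the first and 17749.5, 20002 and 27659 in the second, and the part of depth was not tested. The groups are ranges and not cell types: 643 and 372 cells lay close to a cut. Of 35 genes with enough UMIs, 29 had a ratio of least to most dividing cells above 1 in GTML_SOX9-GFP (50.8% of all genes) and 34 in fGTS2 (49.8%).

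The median ratio was 1.27 in GTML_SOX9-GFP and 1.37 in fGTS2, where all genes had 1.004 and 0.999. It reached 1.5 for 4 genes in GTML_SOX9-GFP, Gabarapl1 (1.70), Ctsd (1.54), Ctsl (1.53) and Sqstm1 (1.52), where 7.96% of all genes did, and for 12 in fGTS2, led by Ctsl (2.48), Sqstm1 (2.21) and Cln3 (2.11), where 11.5% did. None reached 1.5 the other way, where 9.96% and 14.7% of all genes did. Laptm4b was lower in the least dividing cells of both libraries (0.885 and 0.784). Cells with a Sox9 UMI and cells without had 2010 and 1997 UMI CPM from the 36 genes in GTML_SOX9-GFP (607 and 4038 cells), and 2154 and 1995 in fGTS2 (2969 and 1529 cells), with median UMIs of 22188 and 19166 in the latter.

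**Figure D5:**
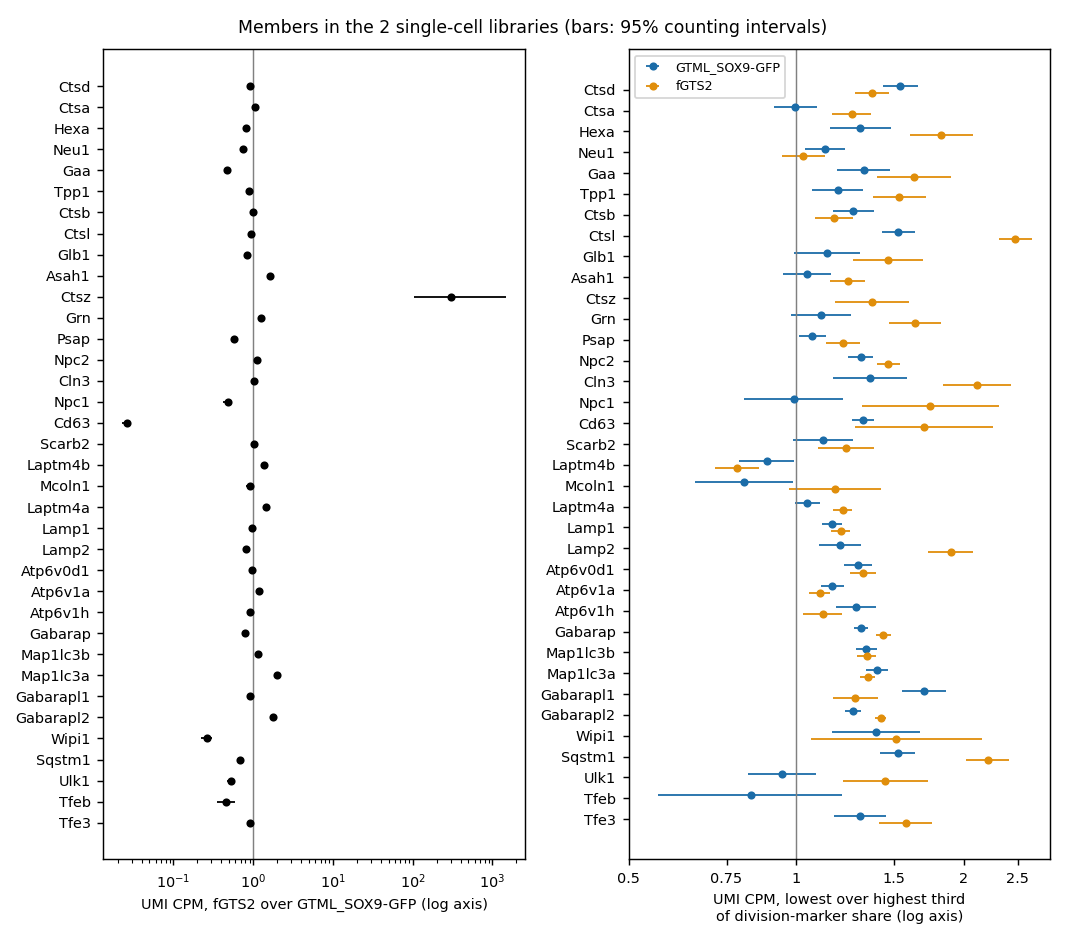
Left, ratio of UMI CPM in fGTS2 over GTML_SOX9-GFP for each gene on a log axis; right, ratio of the least over the most dividing cells within each library; bars are 95% counting intervals. On the left Ctsz is far above 1 and Cd63 far below; on the right most genes lie above 1 in both libraries and Laptm4b below.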

How the data were processed

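RNA and chromatin of 44 mouse samples were used, of which 26 were bulk RNA, 16 were ATAC and 2 were single-cell libraries, grouped by their titles. The descriptions of the treated-line RNA samples name the column of the next sample (the last names none), so columns were matched to samples by title, which the column names repeat. Per the submitters' processing notes, the tools were Cell Ranger 3.3.0, edgeR, STAR 2.4.0, MACS2, Seurat 3.0, Subread 1.5.2, Bowtie2 2.2 and limma and the builds were mm10 and mm9, with no role or table named for any of them. Ion Torrent sequencing served the bulk RNA and 10x Chromium 3' v3 chemistry the single cells, per the labels' protocols. The members and all gene lists were chosen with earlier results of these data known.

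For bulk RNA the authors deposited 2 tables of log2 CPM by gene symbol, normalized separately, so tests stayed within a table. In the tumor table a mean difference between the 2 header numbers had been removed (largest coefficient left 1.8e-14), so the fit has that number as a term; header set 1 held 6 GTML and 2 GTS tumors and set 2 held 2 and 4. In the line table every value came out as a whole number of reads within 0.1. For ATAC the authors deposited CPM of each region, from which whole reads were recovered; their coordinates were read as mm9. For single cells the authors deposited UMI counts.

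limma 3.58.1 in R 4.3.3 (trend and robust options, Benjamini-Hochberg over all features, threshold 0.05) was run on log2 CPM of genes that reached a CPM of 1 in 6 or more tumors, or in 3 or more line samples, and on log2(CPM + 1) of ATAC regions. All 4 line groups shared 1 fit, as did all 6 groups of the first ATAC table. edgeR 4.0.16 and DESeq2 1.42.0 on recovered reads, other filters, pseudocounts and scalings, the replicate number as a block, and leaving out each library were alternatives. Tables were joined and drawn in Python 3.11.15, and the fits were checked on simulated data. Named in full are the members with the largest and smallest changes per comparison and role, Tfeb and Tfe3, and from each pathway list the genes with the largest called changes in each direction; Mycn and Sox9 check the treatment. In single cells no doublet caller was run, sums carry exact 95% Poisson or binomial intervals that cover counting error only, and genes with at least 100 UMIs were compared. Promoter windows came from RefSeq.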

Additional observations from a re-analysis of the deposited data

Results flagged for a closer look

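Within the 8 GTML and 6 GTS tumors, 72 pairs of gene and group were examined for 1 tumor far from the others of its group by Dixon's criterion, and 12 had one, where chance gives about 1 in 20. In the GTML tumors, replicate 3 held Lamp2 at 7.78 log2 CPM (others 4.42 to 5.90), Tfe3 at 7.83 (others 3.80 to 4.47) and Gabarap at 5.57 (others 5.89 to 6.10). Replicate 5 held Ctsb at 5.44 (others 7.17 to 8.57), Npc2 at 3.31 (others 5.88 to 7.23) and Ulk1 at 7.62 (others 6.57 to 6.99), and replicate 6 held Grn at 6.63 (others 5.76 to 6.10). In the GTS tumors, replicate 1 held Ctsb at 6.55 (others 7.26 to 7.51) and Ctsl at 3.90 (others 5.27 to 5.56). Replicate 3 held Hexa at 5.82 (others 6.44 to 6.76) and Laptm4b at 6.46 (others 4.73 to 5.35), and replicate 2 held Tfeb at -2.78 (others 0.87 to 2.48). The criterion looks for 1 tumor and can miss tumors that are apart together. GTML replicates 3 and 4, for instance, held Npc1 at 7.22 and 7.79 (others 3.29 to 4.44) and Neu1 at 7.64 and 7.49 (others 2.43 to 4.58).

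The response to DOX differed between the lines by a test of the difference itself (limma, preGTS1 minus GTML3, log2 scale) for 16 of the 36 genes, where 42.2% of all genes were called, so the number is near the background. It was larger in preGTS1 for Tfeb (0.90), Map1lc3a (0.54), Scarb2 (0.43), Lamp2 (0.36) and Laptm4a (0.32). It was smaller for Cln3 (-2.77), Hexa (-1.35), Grn (-0.80), Neu1 (-0.78), Gaa (-0.69), Ctsa (-0.68), Wipi1 (-0.57), Atp6v1a (-0.52), Atp6v1h (-0.44), Gabarap (-0.37) and Ctsd (-0.36).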

How the results depend on the processing

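No called RNA difference of the 36 genes changed sign under an alternative, but uncalled ones did. Within header set 2 of the tumors 13 of the 36 had the opposite sign, among them Ctsl (0.0573) and Tfe3 (0.389), and leaving out a tumor turned up to 4, among them Npc2 (-1.82 to 0.125). In the lines, up to 5 turned, all uncalled; for DOX these were Ctsz in GTML3 (-1.03 to 0.93 when a library was left out) and Glb1 in preGTS1 (-0.0785 to 0.0848, -0.0207 with centred values, -0.0014 with edgeR). In the lines, the number of the 36 genes called for DOX stayed between 32 and 34 in GTML3 and between 29 and 32 in preGTS1, and for the difference of responses between 12 and 16. Leaving out 1 library at a time gave 32 to 34, 29 to 30 and 13 to 16, and for the line differences 28 in every DMSO fit and 27 to 28 in the DOX fits. Among tumors, 0 genes were called with the header-number term, 7 without it and 0 to 2 when a tumor was left out, 2 without GTS replicate 3 and 1 without GTS replicate 2; over all genes the fit called 8 higher and 1 lower, without the term 616 and 308, without GTS replicate 3 216 and 103, and without GTS replicate 2 356 and 229. Within either header set alone none of the 15708 genes was called.

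The ATAC calls under DOX were unstable. In GTML3, 2 regions became 1 with log2(CPM + 0.5) and 0 to 4 when a library was left out. In preGTS1, 1 became 0 with log2(CPM + 0.5), 5 with edgeR and 0 to 2 when a library was left out. Calls were lost even when the omitted library belonged to another group. Between the lines under DMSO, 11 became 5 to 14, with 7 without preGTS1 DMSO replicate 1 and 5 without replicate 2, and for the sorted fractions 0 stayed 0. Over all regions, edgeR called 11174 higher and 12793 lower in preGTS1 under DOX where limma called 1813 and 1509, and 625 and 3068 in GTML3 where limma called 1685 and 1801; with log2(CPM + 0.5), preGTS1 had 494 and 676. The cause was not tested.

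The replicate numbers are shared between groups, but same-numbered RNA samples did not deviate together (correlations of -0.055, -0.023 and 0.014 in GTML3 and 0.068, -0.154 and -0.063 in preGTS1). With the replicate block, 32 and 29 genes were called for DOX, 12 for the difference of responses, 28 and 27 between the lines, and 0 ATAC regions for DOX in either line.

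The summed share of the 36 genes in single cells was 2044 UMI CPM as a mean over cells and 1987 in cells of at least 10000 UMIs in GTML_SOX9-GFP, and 2143 as a mean over cells in fGTS2. Low read numbers limit Ctsz and Cln3 in RNA and the Grn, Ctsb, Ctsz and Hexa regions in ATAC, and the depth of the tumors is unknown.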
